A study of Mus musculus with 45 samples.

Results

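The expression of 9 genes that write, erase or read cytosine methylation was followed in mouse hippocampal primary neurons through a course of synaptic activity and of excitotoxic stimulation. The genes were taken by their symbols from the count table, which held 54532 gene rows, and each of the 9 symbols matched 1 row. They were the DNA methyltransferases Dnmt1, Dnmt3a and Dnmt3b, the dioxygenases Tet1, Tet2 and Tet3, the methyl-CpG-binding proteins Mbd1 and Mbd2, and Uhrf1, which guides Dnmt1 to newly replicated DNA. The cultures came from newborn C57BL/6N mice, received the mitotic inhibitor AraC and rat serum, and were treated on day in vitro 11. RNA was sequenced in 45 libraries, 1 from each of 5 culture preparations (numbered 1, 3, 6, 7 and 8) in each of 9 conditions. Control cultures were untreated, and 3 conditions received the GABA type A receptor antagonist bicuculline (Bic, 50 µM), which induces action potential firing, for 0.5, 1 or 2 h. In the short protocol (SP), 0.5 h of Bic was followed by 0.5 h in which the sodium channel blocker tetrodotoxin (TTX, 1 µM), or TTX with the glutamate receptor agonist NMDA (30 µM), was present as well. The long protocol (LP) had 1 h of Bic and a further 1 h in which TTX, TTX/NMDA or the glutamate transporter inhibitor TBOA (50 µM) was added to Bic. The passive effect is TTX against Bic alone for the same total time, the active effect is TTX/NMDA against TTX, the total effect is TTX/NMDA against Bic alone, and glutamate spillover is TBOA against Bic alone.

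In vertebrate DNA most methylation sits on the cytosine of CpG dinucleotides. Dnmt3a and Dnmt3b place it on unmethylated DNA, Dnmt1 with Uhrf1 copies it to the new strand after replication, and the Tet enzymes oxidise 5-methylcytosine to 5-hydroxymethylcytosine and beyond, from where base excision repair can restore cytosine. Neurons do not divide, yet they keep high levels of Dnmt1, Dnmt3a and hydroxymethylcytosine, and members of the Mbd family read the mark by binding methylated CpG and recruiting repressor complexes. Only mRNA was measured here, so no value below describes methylation itself.

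The total count on genes ranged from 11316580 to 81129276 per library (median 26239614). Neuronal markers, which check the labelled cell type, were high. Each of 11 was detected in all 45 libraries, and their summed level lay between 7144 and 9781 counts per 1000000 (CPM) in every library. Other cells were present as well, since 8 astrocyte markers summed to between 953 and 2215 CPM. Microglial markers (6 genes) summed to under 6 CPM, and 5 endothelial and mural markers summed to between 10.7 and 27.99 CPM. Of these 5, Cldn5 was at 0 in 27 of the 45 libraries and the other 4 were at 0 in none. Expression of Fos, Npas4, Arc and Bdnf, genes that neuronal activity induces, summed to between 176.5 and 275.3 CPM in the controls and between 1467 and 5449 CPM in Bic alone. The control library of preparation 3 had the lowest level of 6 of the 9 genes among the 5 controls (Dnmt1, Dnmt3a, Tet1, Tet2, Tet3 and Mbd1) and the lowest neuronal marker sum of the controls, 7250 CPM. Changes against the control that passed the test are therefore also given without preparation 3. In bulk RNA, fewer cells of a type and less RNA per cell cannot be told apart.

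Per kilobase of annotated exon, Dnmt3a was the most abundant of the 9 in control cultures, at 23.1 ± 3.23 CPM per kb (SD, n = 5). Dnmt1 followed at 9.86 ± 1.09, and Tet3 (7.98 ± 1.39), Mbd2 (7.18 ± 0.424) and Mbd1 (6.88 ± 0.507) lay close together, with SDs that overlapped. Among the Tet genes the order was Tet3, Tet1 (2.84 ± 0.452 CPM per kb) and Tet2 (1.59 ± 0.357). Uhrf1 (0.222 ± 0.0926) and Dnmt3b (0.105 ± 0.0223) were near the limit of detection, with 4 to 120 and 4 to 42 reads per library over all conditions, against at least 242 reads for each of the other 7 genes. All later levels are CPM scaled by the trimmed mean of M-values (TMM), without division by length. Over the 9 conditions, the highest condition mean exceeded the lowest 2.46-fold for Uhrf1, 1.91-fold for Tet2, 1.89-fold for Dnmt3b and 1.66-fold for Tet3, and between 1.16-fold (Mbd1) and 1.34-fold (Tet1) for the others.

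**Figure D1:**
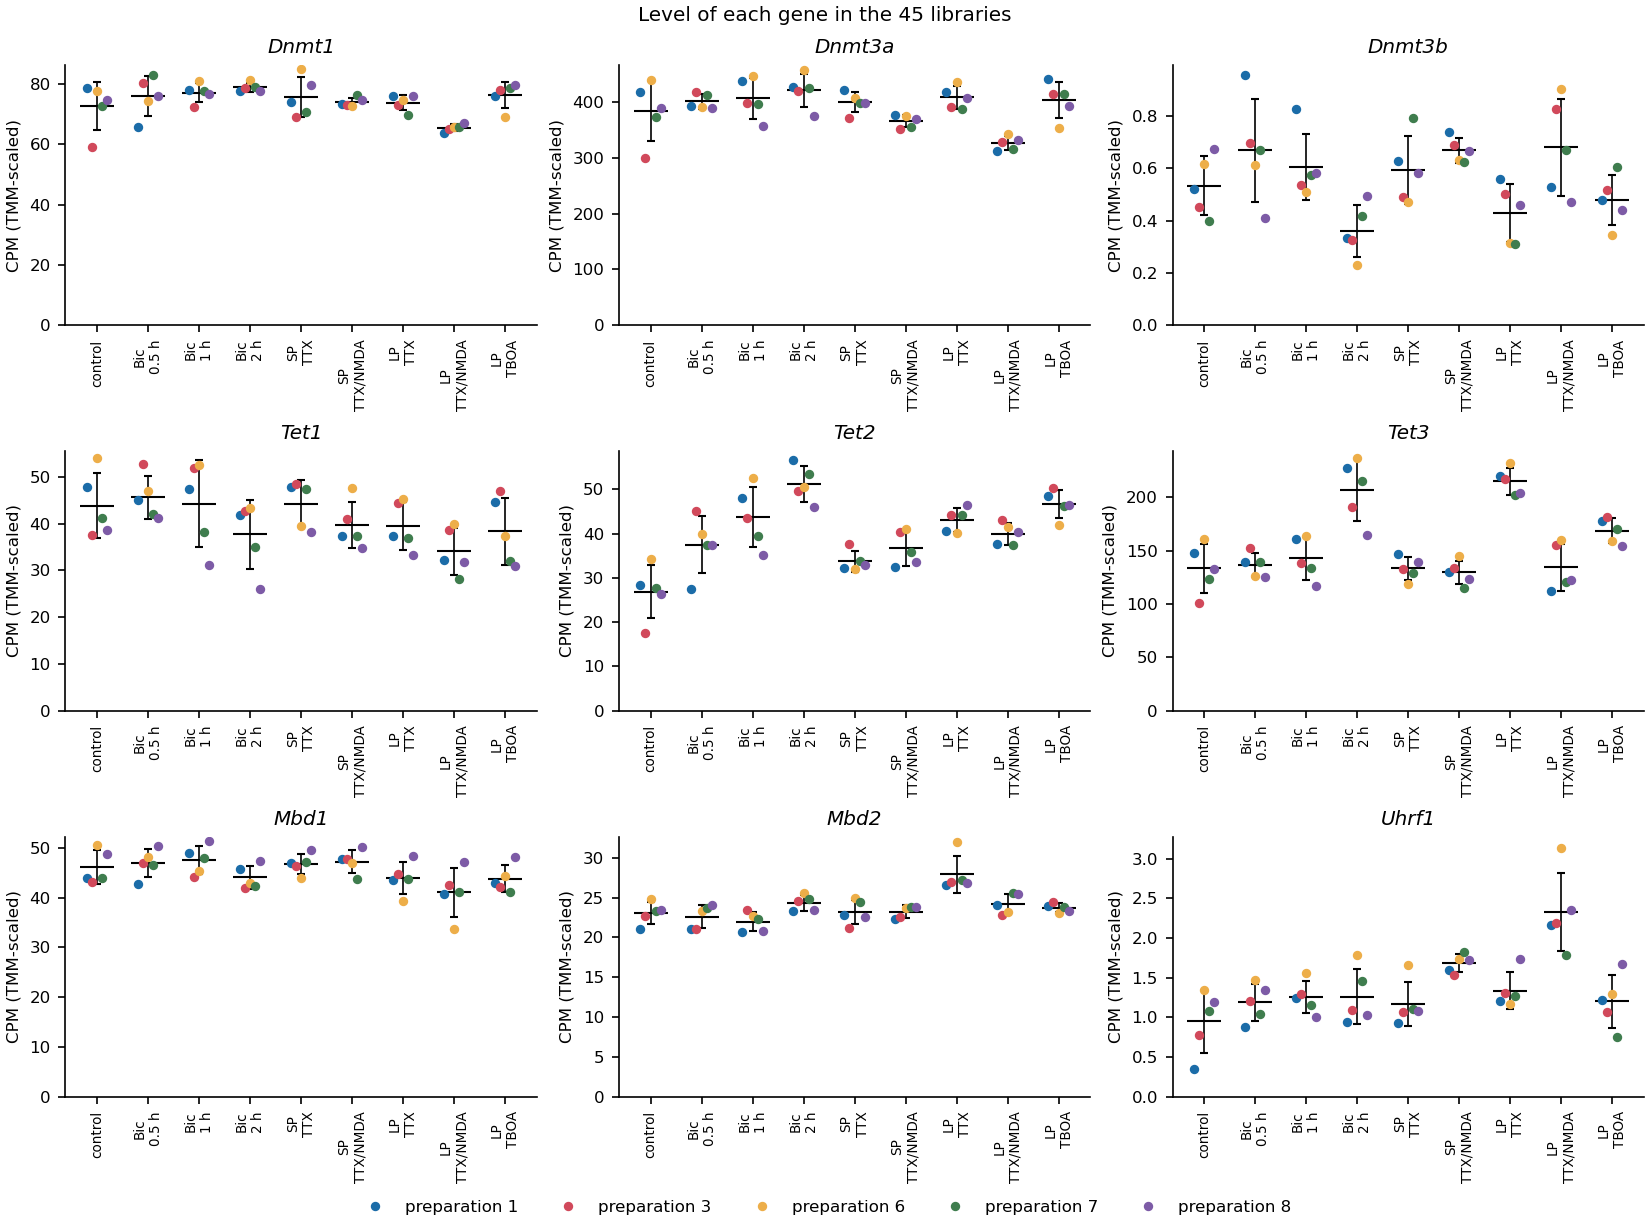
TMM-scaled CPM of each of the 9 genes (y axis, from 0) in the 9 conditions (x axis), with 1 point per library coloured by culture preparation and the mean ± SD of 5 libraries in black. Tet2 climbed along the Bic series from a control mean of 26.9 to 51.3 CPM after 2 h, Tet3 stood highest after 2 h Bic and with LP TTX, and Uhrf1 stood highest with LP TTX/NMDA.

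Tet2 rose within the Bic series, and Tet3 after 2 h. Both fell with LP TTX/NMDA compared to Bic alone, as did Dnmt1 and Dnmt3a, whereas Uhrf1 and Dnmt3b rose. Of the 90 values (9 genes in 10 comparisons of 2 conditions), 17 passed the test, edgeR's quasi-likelihood test at 0.05 after Benjamini-Hochberg adjustment over all genes tested, and 11 of these 17 did so in each of the 11 alternative analyses. At least 1 comparison was passed by 7 genes, and Tet1 and Mbd1 passed in none of the 10. Several comparisons use the same libraries. The 3 Bic time points share the controls, the passive and total effects share Bic alone, and the passive and active effects share TTX. The active and total effects share TTX/NMDA. The libraries of 1 and 2 h Bic also enter with opposite sign against the control and in the passive, total and spillover effects.

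After 0.5 h Bic, 1 of the 9 genes was called higher (Tet2) and 0 lower, while 0.289% of the 30133 genes tested were called higher and 0.0% lower. At this time point no gene of the whole table was called lower by the unpaired edgeR test of all 5 preparations. In that test 1104 genes had p under 0.05 before adjustment, in either direction, and DESeq2 called 1 gene lower. After 1 h, Tet2 alone was called, with 0.965% of all genes called higher and 0.195% lower. After 2 h, Tet2 and Tet3 were called higher and none lower, beside 4.24% and 4.78% of all genes. For the SP passive effect Tet2 was called lower (0.0157% of all genes higher, 0.252% lower). None of the 9 was called by the unpaired edgeR test for the SP active effect (0.956% of all genes higher, 3.32% lower) or the SP total effect (0.891% and 3.41%). For these, 2 and 3 of them had an unadjusted p-value under 0.05 and DESeq2 called 0 in both. A paired edgeR fit, with preparation as a block, called Uhrf1 higher for the SP active effect. For the SP total effect it called Dnmt3a and Tet2 lower.

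For the LP passive effect Tet2 was called lower, beside 3.03% of all genes higher and 1.62% lower. The LP active effect had 4 of the 9 called lower (Dnmt1, Dnmt3a, Tet3, Mbd2) and 1 higher (Uhrf1), when 11.8% of all genes were lower and 11.6% higher. The LP total effect had 4 lower (Dnmt1, Dnmt3a, Tet2, Tet3) and 2 higher (Dnmt3b, Uhrf1), when 11.1% of all genes were lower and 11.7% higher. These shares include genes with as little as 1 read. Over genes passing edgeR's expression filter (filterByExpr), 3736 of 16399 were lower and 4090 higher for the active effect. For the total effect 3486 of 15947 were lower and 3940 higher. The median change over the 9 genes was −0.18 (log2) for the LP active and −0.17 for the LP total effect, against −0.01 and 0.00 over 13592 genes expressed at a mean of at least 1 CPM. Glutamate spillover had none called by the unpaired edgeR test, 1 with an unadjusted p-value under 0.05 and 0 by DESeq2 (0.0536% of all genes higher, 0.549% lower). The paired edgeR fit called Tet3 lower.

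**Figure D2:**
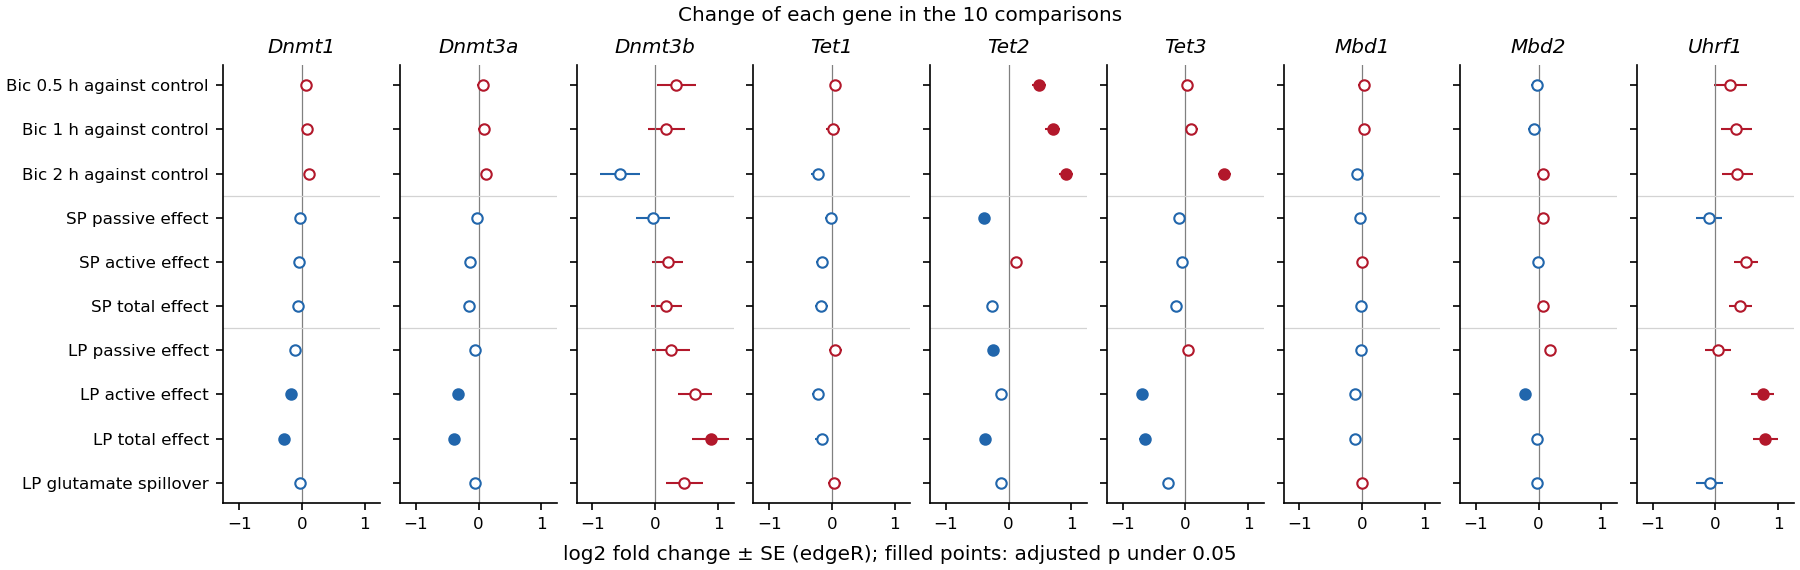
log2 fold change ± SE (x axis) of each gene (panels) in the 10 comparisons (y axis), from edgeR on the 10 libraries of each comparison. Filled points had an adjusted p-value under 0.05, red is higher and blue lower: Tet2 carries 6 filled points, Tet3 carries 3, and Tet1 and Mbd1 carry none.

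Dnmt3a (ENSMUSG00000020661, chr12:3806007-3914443, plus strand, GRCm38), the main de novo methyltransferase of mature neurons, was called in no Bic comparison and fell with LP TTX/NMDA. In preparations 1, 3, 6, 7 and 8 it was at 428, 421, 458, 426 and 376 CPM after 2 h Bic, at 418, 391, 437, 388 and 408 CPM with LP TTX, and at 312, 329, 343, 316 and 333 CPM with LP TTX/NMDA. Each of the 5 TTX/NMDA libraries lay below every library of LP TTX and of 2 h Bic. The log2 fold change was −0.33 ± 0.06 (SE) for the active effect (edgeR, adjusted p = 0.00016) and −0.38 ± 0.07 for the total effect (adjusted p = 4.1e-05), with 5 of 5 preparations lower in both. The mean level fell by 20.1% and by 22.6%. With SP TTX/NMDA the log2 fold change was −0.14 ± 0.06 against TTX (edgeR, adjusted p = 0.33; lower in 5 of 5 preparations) and −0.16 ± 0.07 against 1 h Bic (adjusted p = 0.24), and the latter was called in the paired fit, which has preparation as a block (edgeR, adjusted p = 0.021). Against the control its changes in Bic alone lay between 0.06 and 0.12, with SEs of 0.09. Reads were summed over all transcripts of the gene, so the long form and the short form that starts at an internal promoter were not separated.

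Dnmt1 (ENSMUSG00000004099, chr9:20907209-20959888, minus strand), the maintenance methyltransferase, was also lower with LP TTX/NMDA. It was at 78.0, 78.8, 81.6, 79.0 and 77.7 CPM after 2 h Bic, at 76.0, 73.0, 74.8, 69.9 and 76.1 CPM with LP TTX, and at 63.9, 65.1, 65.8, 66.0 and 67.2 CPM with LP TTX/NMDA. The TTX/NMDA libraries lay below all libraries of both other conditions. The total effect was −0.28 ± 0.06 on the log2 scale (edgeR, adjusted p = 0.0011). The active effect was −0.18 ± 0.06 (edgeR, adjusted p = 0.036), a call that was lost when any 1 preparation was left out, although the change remained between −0.21 and −0.16. The LP passive effect, −0.10 ± 0.06 (adjusted p = 0.42), was called only in the paired fit (−0.11, edgeR, adjusted p = 0.041). With Bic alone Dnmt1 differed from the control by 0.06 to 0.11, with SEs of 0.08 to 0.09.

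Dnmt3b (ENSMUSG00000027478, chr2:153649450-153687730, plus strand), the other de novo methyltransferase, known mainly from early development, was measured with few reads. Its levels were 0.334, 0.325, 0.229, 0.419 and 0.493 CPM after 2 h Bic and 0.530, 0.829, 0.905, 0.670 and 0.471 CPM with LP TTX/NMDA. The ranges overlapped, and preparation 8 was slightly lower with TTX/NMDA while the other 4 were higher. The total effect was 0.88 ± 0.30 (log2; edgeR, adjusted p = 0.027) and lost the call without preparation 3 (0.75, adjusted p = 0.14) or 6 (0.66, adjusted p = 0.16). The active effect was 0.63 ± 0.27 (edgeR, adjusted p = 0.098), higher in 4 of 5 preparations, and was called in the paired fit (0.63, adjusted p = 0.034).

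Tet2 (ENSMUSG00000040943, chr3:133463679-133545139, minus strand), a Tet enzyme that lacks the CXXC DNA-binding domain of Tet1, was the 1 gene of the 9 called after 0.5 and 1 h Bic. In preparations 1, 3, 6, 7 and 8 it was at 28.4, 17.6, 34.3, 27.7 and 26.4 CPM in the control and at 27.5, 45.2, 40.002, 37.4 and 37.6 CPM after 0.5 h Bic. It then reached 48.0, 43.5, 52.6, 39.5 and 35.3 CPM after 1 h and 56.7, 49.7, 50.5, 53.6 and 45.97 CPM after 2 h. The control and 0.5 h ranges overlapped, while every library at 1 and 2 h lay above every control. The log2 fold change was 0.48 ± 0.11 after 0.5 h (edgeR, adjusted p = 0.025), 0.70 ± 0.11 after 1 h (adjusted p = 5.8e-05) and 0.92 ± 0.11 after 2 h (adjusted p = 6.3e-08). By ratio of the means this was 1.40-fold, 1.63-fold and 1.91-fold. Without preparation 3, whose control was the lowest, the 3 changes were 0.29 (edgeR, adjusted p = 0.55), 0.58 (adjusted p = 7.7e-07) and 0.81 (adjusted p = 9.5e-12). The call at 0.5 h was also lost in the paired fit (edgeR, adjusted p = 0.49) and with DESeq2 (adjusted p = 0.38), and 4 of 5 preparations were higher at that time.

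Where TTX was added to Bic, Tet2 was lower than in Bic alone. With SP TTX it was at 32.2, 37.7, 32.1, 33.7 and 32.8 CPM, below 1 h Bic in 5 of 5 preparations. The passive effect was −0.39 ± 0.08 (log2, edgeR, adjusted p = 0.023). This call was lost in the paired fit (−0.38, adjusted p = 0.078), without preparation 1 (adjusted p = 0.24) and without preparation 6 (−0.28, adjusted p = 0.34). With LP TTX it was at 40.5, 44.2, 40.2, 44.1 and 46.4 CPM, below 2 h Bic in 4 of 5 preparations, with a passive effect of −0.26 ± 0.07 (edgeR, adjusted p = 0.023) that lost its call without preparation 1 (−0.19), 6 (−0.24) or 7 (−0.24). Neither group was wholly separate from Bic alone, and the difference between the LP and SP passive effects was 0.13 ± 0.11 (adjusted p = 1.0). Adding NMDA to TTX gave 0.11 ± 0.08 in SP and −0.12 ± 0.07 in LP (edgeR, adjusted p = 0.53 and 0.26). The difference between these, −0.22 ± 0.10, had an adjusted p of 0.33 and of 0.037 in the paired fit. With LP TTX/NMDA Tet2 was at 37.6, 42.99, 41.4, 37.5 and 40.4 CPM, below all 2 h Bic libraries, and the total effect was −0.37 ± 0.07 (edgeR, adjusted p = 0.00019), and the mean level fell by 22.05%. The SP total effect was −0.26 ± 0.09 (edgeR, adjusted p = 0.087), lower in 5 of 5 preparations, and was called in the paired fit (adjusted p = 0.0084). In order of the means, Tet2 ran from 2 h Bic (51.3 CPM) over LP TBOA (46.7) and 1 h Bic (43.8) to the control (26.9), and the ranges of all neighbours in this order overlapped.

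Tet3 (ENSMUSG00000034832, chr6:83362373-83459084, minus strand), the most abundant Tet transcript of these cultures, was called after 2 h Bic and not before. It was at 148, 101, 161, 124 and 133 CPM in the control. Its changes were 0.03 ± 0.09 after 0.5 h and 0.10 ± 0.10 after 1 h Bic (log2, edgeR, adjusted p = 0.97 and 0.73). After 2 h Bic it was at 227, 191, 236, 215 and 165 CPM, every library above every control, with a change of 0.62 ± 0.10 (edgeR, adjusted p = 2.5e-05), or 1.55-fold. Without preparation 3 the change was 0.57 (edgeR, adjusted p = 2.4e-07). With LP TTX it was at 219, 217, 232, 202 and 204 CPM, so the level reached after 2 h Bic was also found when firing had been blocked for the last hour. The LP passive effect was 0.05 ± 0.07 (edgeR, adjusted p = 0.79).

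With NMDA added to TTX in the LP, Tet3 was at 112, 155, 160, 120 and 123 CPM, below every LP TTX library and within the range of the controls. The active effect was −0.69 ± 0.08 (log2; edgeR, adjusted p = 1.6e-07), as the mean level fell by 37.6%, and the total effect was −0.64 ± 0.09 (adjusted p = 1.9e-06). Both were lower in 5 of 5 preparations. In the SP the active effect on Tet3 was −0.05 ± 0.07 (edgeR, adjusted p = 0.74). The LP minus SP difference, tested as an interaction, was −0.62 ± 0.11 (edgeR, adjusted p = 0.00065). Tet3 was the 1 gene of the 9 whose active effect was called different between the protocols, where 0.722% of the 35027 genes tested were called with a positive and 1.85% with a negative difference. The paired fit called Dnmt3a (−0.19), Tet2 (−0.23) and Mbd2 (−0.20) as well. No gene of the 9 was called for the difference between the passive effects by edgeR or DESeq2, and none had an unadjusted p-value under 0.05, beside 0.187% and 0.0699% of all genes with a positive and a negative difference.

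With LP TBOA, Tet3 was at 177, 182, 159, 170 and 154 CPM. All 5 preparations were below their own 2 h Bic library, although the ranges overlapped because preparation 8 was at 165 CPM in Bic. The change was −0.28 ± 0.07 (log2, edgeR, adjusted p = 0.065) and was not called by DESeq2 (adjusted p = 0.060). It was called by edgeR in the paired fit (−0.27, adjusted p = 0.041) and without preparation 3 (−0.34, adjusted p = 0.017) or 8 (−0.32, adjusted p = 0.00039). The fit without preparation 8 had infinite prior degrees of freedom, so its small p-value is to be read with care. The condition means of Tet3 fell in the order LP TTX (214.8 CPM), 2 h Bic (206.8), LP TBOA (168.6) and 1 h Bic (142.7), with the remaining 5 conditions between 129.5 and 136.5 CPM. Neighbours in this order overlapped throughout.

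Tet1 (ENSMUSG00000047146, chr10:62804570-62908996, minus strand), a CXXC-domain Tet enzyme best known from embryonic stem cells, was not called in any of the 10 comparisons. It was at 47.9, 37.5, 54.1, 41.1 and 38.7 CPM in the control and at 41.8, 42.6, 43.3, 34.95 and 25.9 CPM after 2 h Bic. The groups overlapped, 4 of 5 preparations were lower, and the change was −0.23 ± 0.11 (log2; edgeR, adjusted p = 0.26). Without preparation 3 it was −0.33 and was called (adjusted p = 0.022). The LP active effect was −0.22 ± 0.09 (edgeR, adjusted p = 0.085), lower in 5 of 5 preparations, and was called in the paired fit (−0.20, adjusted p = 0.0033).

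**Figure D3:**
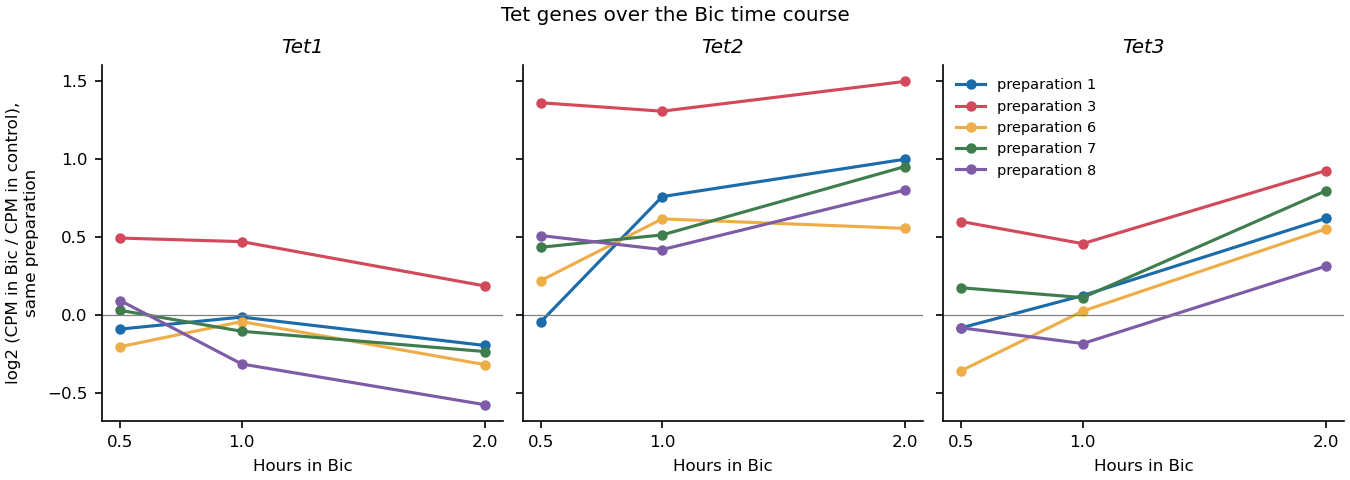
log2 ratio of CPM in Bic to CPM in the control of the same preparation (y axis) against hours in Bic (x axis), with 1 line per culture preparation, for Tet1, Tet2 and Tet3. Tet2 lies above 0 in 5 of 5 preparations at 1 and 2 h, Tet3 in 5 of 5 at 2 h, and preparation 3 is the highest line in all 3 panels.

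The sequences upstream of the RefSeq start sites of Tet2 and Tet3 are shown because these are the 2 genes that rose with Bic. Each covers the 250 bases before the start, 5′ to 3′ on the strand of the gene (RefSeq, GRCm38.p6), and capitals mark CpG, the dinucleotide on which the encoded enzymes act. The Tet2 window is chr3:133544391-133544640 and the Tet3 window chr6:83441679-83441928. Both lie within the annotated spans given above for these genes, whose annotated starts lie further upstream.
Tet2: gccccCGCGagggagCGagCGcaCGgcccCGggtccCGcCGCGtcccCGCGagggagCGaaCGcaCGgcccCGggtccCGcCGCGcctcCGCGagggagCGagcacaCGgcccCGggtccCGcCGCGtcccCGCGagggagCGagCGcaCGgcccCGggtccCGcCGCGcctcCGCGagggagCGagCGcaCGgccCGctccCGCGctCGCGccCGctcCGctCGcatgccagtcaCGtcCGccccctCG
Tet3: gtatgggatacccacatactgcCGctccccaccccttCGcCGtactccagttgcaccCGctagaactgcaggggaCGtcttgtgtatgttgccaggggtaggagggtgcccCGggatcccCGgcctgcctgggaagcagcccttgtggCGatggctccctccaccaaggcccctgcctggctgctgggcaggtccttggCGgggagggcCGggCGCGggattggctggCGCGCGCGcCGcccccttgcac

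The Tet2 window held 51 CpG and was 83.6% G or C, and 99.9% of the 32851 mouse promoter windows of this length held fewer CpG. The Tet3 window held 17 CpG and was 69.6% G or C, with 76.5% of windows holding fewer, and the median window held 6.0. Neither window of 250 bases held, on either strand, the full cyclic AMP response element TGACGTCA (in 1.55% of all windows), its core TGACG (17.8%, which includes the full element), the AP-1 site TGANTCA (6.75%), the EGR site GCGNGGGCG (4.70%) or a CArG box (1.47%). Windows were found for 7 of the 9 genes, 12 windows in all. The only matches among them were EGR sites, 2 in the Dnmt3b window and 1 each in those of Tet1 and of an upstream start of Dnmt3a.

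Mbd2 (ENSMUSG00000024513, chr18:70568189-70626131, plus strand) binds methylated CpG and brings the nucleosome remodelling and deacetylase complex to it. It was at 23.3, 24.6, 25.6, 24.8 and 23.4 CPM after 2 h Bic, at 26.7, 27.01, 32.1, 27.2 and 26.8 CPM with LP TTX and at 24.04, 22.8, 23.2, 25.6 and 25.5 CPM with LP TTX/NMDA. The LP TTX libraries were all above those of both other conditions, and the library of preparation 6 stood apart at 32.1 CPM. The active effect was −0.21 ± 0.08 (log2; edgeR, adjusted p = 0.049), lower in 5 of 5 preparations, and its call was lost without preparation 1 (adjusted p = 0.075), 3 (0.16), 6 (0.21) or 7 (0.055). The LP passive effect was 0.19 ± 0.07 (edgeR, adjusted p = 0.17), higher in 5 of 5 preparations and called in the paired fit (0.18, adjusted p = 0.011). Mbd2 with LP TTX/NMDA differed from 2 h Bic by −0.02 ± 0.08.

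Mbd1 (ENSMUSG00000024561, chr18:74267605-74282732, plus strand), a methyl-CpG-binding repressor, was the steadiest of the 9. It was at 44.05, 43.1, 50.6, 43.9 and 48.8 CPM in the control, and its changes over the 10 comparisons lay between −0.11 and 0.04 (log2), with a smallest adjusted p of 0.36 (edgeR).

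Uhrf1 (ENSMUSG00000001228, chr17:56303321-56323486, plus strand), which binds hemimethylated DNA and is expressed mostly by dividing cells, was the member with the widest range of condition means. It was at 0.348, 0.770, 1.34, 1.08 and 1.20 CPM in the control and at 1.20, 1.31, 1.17, 1.27 and 1.73 CPM with LP TTX. With LP TTX/NMDA it was at 2.17, 2.19, 3.13, 1.79 and 2.35 CPM, above every LP TTX and every 2 h Bic library. The active effect was 0.75 ± 0.18 (log2; edgeR, adjusted p = 0.0024), or 1.74-fold, and the total effect was 0.80 ± 0.20 (adjusted p = 0.0025), or 1.85-fold. In the SP, TTX/NMDA libraries were at 1.597, 1.53, 1.74, 1.82 and 1.72 CPM and TTX libraries at 0.931, 1.06, 1.66, 1.10 and 1.08 CPM. This active effect was 0.49 ± 0.19 (edgeR, adjusted p = 0.18), higher in 5 of 5 preparations, and was called in the paired fit (0.53, adjusted p = 0.034). The LP minus SP difference of Uhrf1 was 0.29 ± 0.25 (edgeR, adjusted p = 0.72). With Bic alone its changes were 0.24 to 0.35, with SEs of 0.24 to 0.26.

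Markers of other cell types moved with the LP active effect. Of 8 astrocyte markers 7 were called higher and 1, the glutamate transporter Slc1a2, lower, and their sum was between 1221 and 2215 CPM with LP TTX/NMDA and between 1049 and 1605 CPM with LP TTX. Of 8 oligodendrocyte lineage markers 5 were called higher, with sums of 158.9 to 313.0 and 100.9 to 167.8 CPM. Of 10 markers of cycling cells 8 were called higher, Top2a (0.85 ± 0.18) and Mki67 (0.78 ± 0.20) among them, and the sums were 35.2 to 50.9 and 23.5 to 34.1 CPM. Endothelial and mural markers had 3 of 5 called higher, with sums of 24.2 to 27.99 and 15.4 to 19.5 CPM. Microglial markers had 1 of 6 called higher (P2ry12, at 0 in 6 of the 45 libraries), with sums of 3.91 to 5.94 and 3.74 to 5.34 CPM. Of the 11 neuronal markers 6 were called lower, led by Camk2a (−1.13 ± 0.09) and Prox1 (−0.92 ± 0.14), and their sums were 7144 to 7827 and 8787 to 9781 CPM. Each of the astrocyte, oligodendrocyte lineage, endothelial and mural, and cycling sums was higher in 5 of 5 preparations, as Uhrf1 was. The neuronal sum was lower in 5 of 5, as Dnmt1, Dnmt3a, Tet3 and Mbd2 were, and as Tet1 and Mbd1 were without a call. For the LP total effect these 4 sums were likewise higher and the neuronal sum lower in 5 of 5 preparations. For the SP active effect the cycling sum was also higher in 5 of 5 (26.99 to 42.3 CPM with SP TTX/NMDA and 23.7 to 38.9 with SP TTX), with 0 of its 10 markers called, in the direction of Uhrf1. The neuronal sum was lower in 5 of 5 for the SP active effect (7645 to 8375 against 8021 to 9101 CPM), with 4 of 11 markers called lower and 1 higher, and lower in 5 of 5 for the SP total effect, in the direction of Dnmt3a. Also in 5 of 5 preparations, the endothelial and mural sum was higher for the SP total effect (0.255 to 0.722, log2). The cycling sum was lower for the LP passive effect (−0.192 to −0.026), in the direction of Dnmt1. The microglial sum was higher for the SP passive effect (0.029 to 0.383), where Tet2 was lower. The part of these markers in the results was not tested. In Bic alone over 0.5 to 2 h, by comparison, the astrocyte sum lay between 964.4 and 1520 CPM (control 1019 to 1358) and the cycling sum between 22.4 and 36.7 CPM (control 23.3 to 34.8). After 2 h Bic the neuronal sum was between 8542 and 9643 CPM (control 7250 to 9209) and above the control in 5 of 5 preparations, in the direction of Tet2 and Tet3, by 0.006 to 0.314 (log2), most in preparation 3. Of its 11 markers 1 was called higher.

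**Figure D4:**
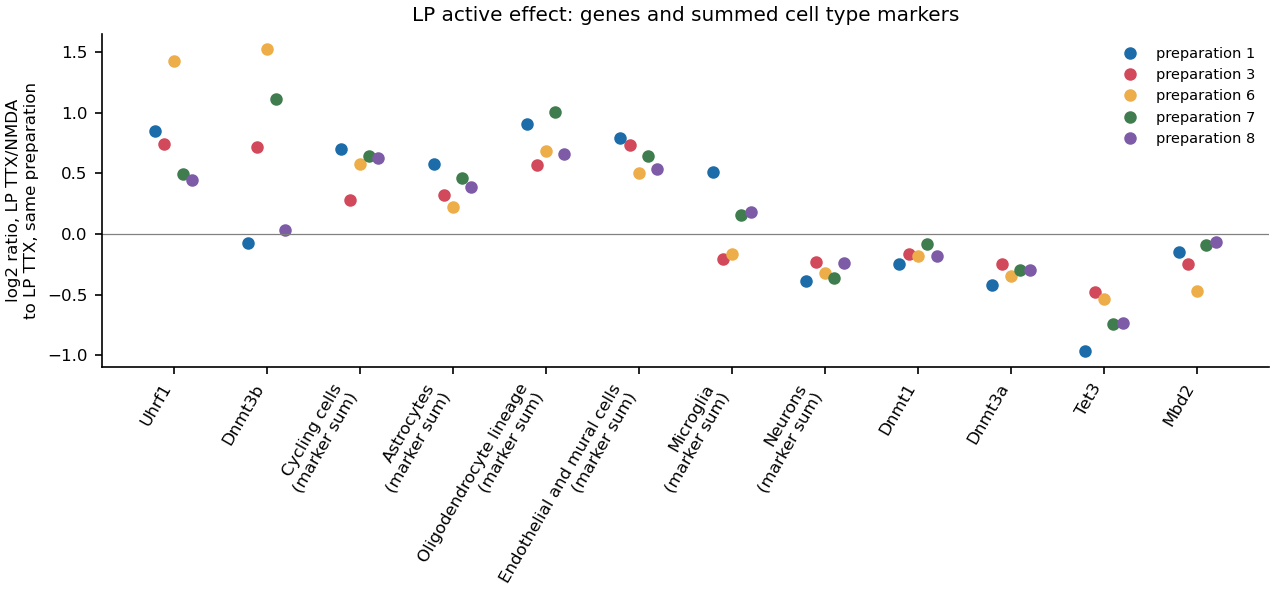
log2 ratio of the level with LP TTX/NMDA to that with LP TTX in the same preparation (y axis), with 1 point per culture preparation, for 6 of the genes and for the summed CPM of 6 lists of cell type markers (x axis). Uhrf1 and the cycling, astrocyte, oligodendrocyte lineage and endothelial sums lie above 0 in 5 of 5 preparations, and the neuronal sum, Dnmt1, Dnmt3a, Tet3 and Mbd2 below 0 in 5 of 5.

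The genes whose pattern was most like each called member were found by the Pearson correlation of log2 CPM over the 45 libraries, after the mean of each preparation was subtracted. These correlations describe libraries that share treatments and preparations. Tet2 was most like Kdm6b (r = 0.840), which encodes a histone H3 lysine 27 demethylase, Srrm2 (0.837), a splicing factor gene, and Greb1l (0.836). Tet3 was most like R3hdm1 (r = 0.958), Tnks (0.957), which encodes the poly-ADP-ribosyltransferase tankyrase, and Cpeb3 (0.945), a regulator of synaptic mRNA translation. Dnmt3a was most like the sodium channel gene Scn8a (r = 0.969), Srgap3 (0.965) and Atp8a2 (0.964), and Dnmt1 most like Smarcc2 (0.911), which encodes a subunit of neuronal chromatin remodelling complexes, Farp1 (0.889) and Celf5 (0.888). Uhrf1 was most like Lcp1 (r = 0.857) and Mpeg1 (0.806), 2 genes best known from leukocytes and macrophages, and Gm20342 (0.803). Mbd2 was most like Spred1 (r = 0.836), Slc19a2 (0.801) and Rdx (0.789), and the values for Dnmt3b, from few reads, reached 0.678 (Ccdc112).

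Among 68 further genes of the pathway, 3, 4 and 6 were called higher after 0.5, 1 and 2 h Bic and 7 lower after 2 h, with medians of 0.03, 0.05 and 0.02 (log2). Over all genes tested, 0.289%, 0.965% and 4.24% were called higher at these times and 4.78% lower after 2 h. Without preparation 3 each of these calls was kept apart from that of Hdac2, which was among the 7 lower (−0.26 in all preparations, −0.22 without, edgeR, adjusted p = 0.068). The Gadd45 genes, whose products have been linked to active demethylation, changed most in this series. Gadd45b rose from 9.39 ± 1.07 CPM (SD, n = 5) in the control to 176.4 ± 19.4 CPM after 2 h (4.22 ± 0.10, log2 ± SE), and Gadd45g from 19.05 ± 2.75 to 359.5 ± 42.5 CPM (4.23 ± 0.10). Mbd6, an Mbd family member that associates with a deubiquitinase complex, rose after 0.5 h (0.77 ± 0.11) and 1 h (0.81 ± 0.11), and by 0.63 and 0.72 without preparation 3. Gadd45a rose after 1 h (0.56 ± 0.15) and 2 h (1.35 ± 0.13). Among the partners of maintenance methylation, Pcna, the replication clamp, was called higher after 2 h (0.53 ± 0.08). Setd2, which writes the histone mark that recruits Dnmt3b, was lower after 2 h (−0.48 ± 0.09) and higher for the LP passive effect (0.31 ± 0.07), and Zbtb33, the methyl-CpG reader Kaiso, likewise (−0.39 ± 0.08 and 0.48 ± 0.07).

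With TTX in the SP, 3 of the 68 genes were lower, Gadd45g (−0.94 ± 0.09), Gadd45b (−0.77 ± 0.08) and Mbd6 (−0.59 ± 0.08), beside 0.252% of all genes. The SP active effect had 1 higher, Mbd6 (0.68 ± 0.08), and 7 lower, with Gadd45b (−0.85 ± 0.08) and the remodelling complex subunit Mta3 (−0.32 ± 0.07) the largest, beside 0.956% of all genes higher and 3.32% lower. The SP total effect had 9 lower, led by Gadd45b (−1.61 ± 0.10), Gadd45g (−1.22 ± 0.10) and Mta3 (−0.35 ± 0.07), beside 3.41% of all genes. For the LP passive effect 5 were lower, Gadd45g most (−1.76 ± 0.08), and 2 higher, beside 1.62% and 3.03% of all genes.

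The LP active effect had 21 of the 68 lower and 9 higher, beside 11.8% and 11.6% of all genes. Those shares include genes with as little as 1 read. Of the 16399 genes passing edgeR's expression filter (filterByExpr), 3736 were called lower and 4090 higher. The groups below are to be read against both backgrounds. The LP total effect also had 21 lower and 9 higher, beside 11.1% and 11.7%. Gadd45g (1.51 ± 0.08), Apobec3 (0.93 ± 0.27) and Apobec1 (0.71 ± 0.17), the latter 2 from a family of cytidine deaminases, rose most for the active effect. Of 12 subunits of the nucleosome remodelling and deacetylase complex, 5 fell (Chd3, Chd4, Chd5, Mta3 and Rbbp7, between −0.49 and −0.26). A further 10 genes were listed with the readers, though not all of them need bind methylated CpG themselves. Of these 10, 4 fell, Mbd5 (−0.46 ± 0.07) among them, and Mbd6 rose (0.70 ± 0.09). Of 10 base excision genes, Tdg, the glycosylase that removes the oxidised bases made by the Tet enzymes, fell (−0.35 ± 0.08) with Lig3 and Parp1, and Neil1 rose (0.50 ± 0.14). Of the 6 genes for CXXC proteins and Tet partners, Kdm2a (−0.66 ± 0.06) and Kdm2b (−0.54 ± 0.08) fell, and Cxxc4 rose (0.25 ± 0.08). Of 7 partners of maintenance methylation, Cdca7 and Cdca7l, which encode partners of the helicase Hells, rose (0.59 ± 0.16 and 0.62 ± 0.19), as Uhrf1 did, and 1 fell. For the total effect 3 of these 7 rose, Cdca7 (0.79 ± 0.16) among them, and 1 fell. Of 7 demethylation-linked genes, Apobec1 (0.86 ± 0.16) rose and 3 fell for the total effect, Gadd45b (−0.71 ± 0.08) among them. The median over the 68 genes was −0.08 (active effect) and −0.03 (total effect). The same cell type markers moved beside these changes, and their part was not tested. Of the 68, glutamate spillover had 1 lower, Gadd45b (−0.31 ± 0.06), beside 0.549% of all genes.

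**Figure D5:**
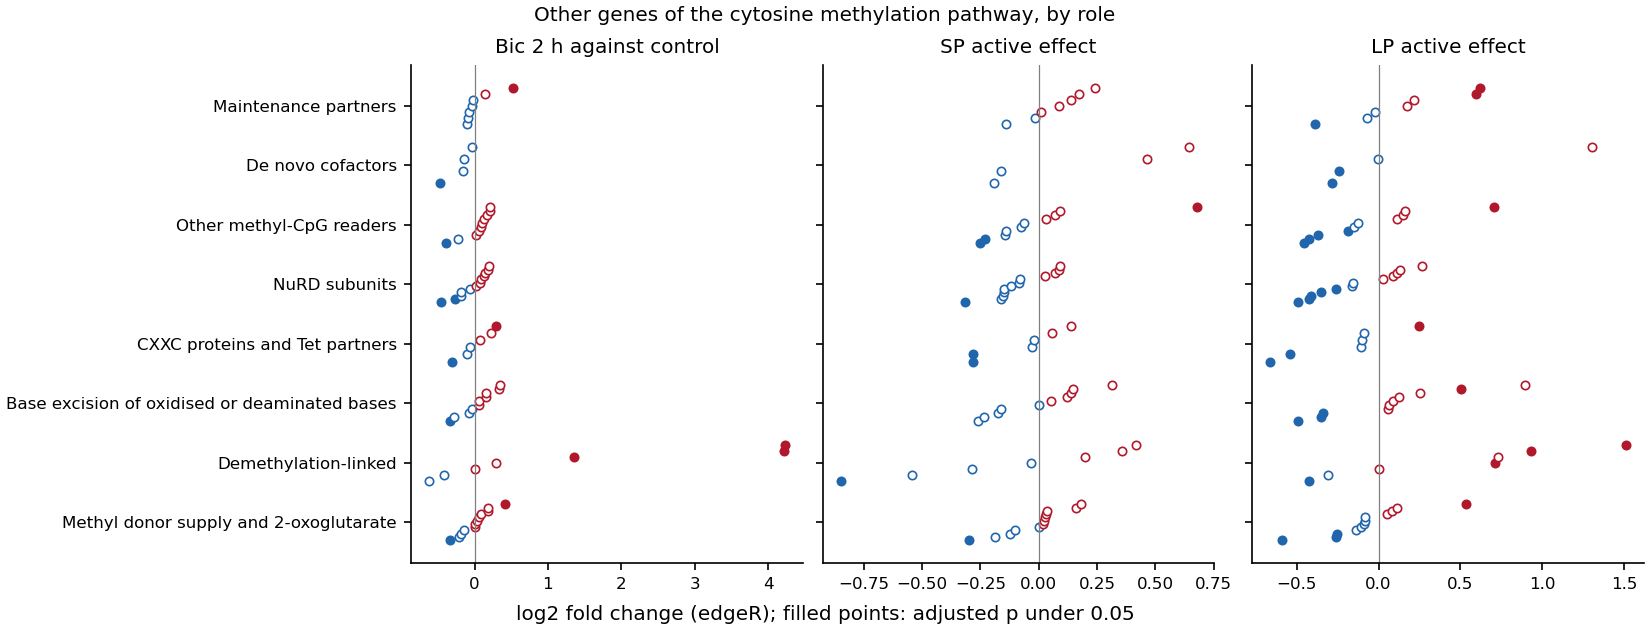
log2 fold change (x axis, a different scale in each panel) of 68 further genes of the cytosine methylation pathway, 1 point per gene, grouped by role (y axis), for 2 h Bic against control, the SP active effect and the LP active effect. Filled points had an adjusted p-value under 0.05; Gadd45b and Gadd45g lie above 4 after 2 h Bic, and 21 genes are filled to the left of 0 for the LP active effect.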

How the data were processed

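The authors prepared strand-specific poly-A libraries, sequenced them single-end, aligned reads with STAR (2.5.4b) to GRCm38 with Ensembl annotation and counted sense reads per gene with featureCounts (1.6.5), without multi-mapping or multi-overlapping reads. They deposited raw counts per library. Each pair of conditions was tested on its 10 libraries with edgeR (4.0.16; quasi-likelihood, TMM) over genes with at least 1 read, and the LP and SP effects were compared by an interaction term over the libraries of both. The replicate numbers mark culture preparations per the labels, so libraries pair: deviations from condition means correlated at 0.43 on average within and −0.12 between preparations. The paired fit used preparation as a block over genes passing filterByExpr. The tests were also run on simulated counts without a preparation effect, which cannot check them for paired libraries. Alternatives were size factors, filters, DESeq2 (1.42.0), all 45 libraries together and leaving out each preparation. CPM were TMM-scaled, and correlations used log2 CPM with a prior count of 1. Exon lengths came from GENCODE M21. Named genes were all 9 members, up to 3 further pathway genes per comparison with the largest called change in 5 of 5 preparations, and the 3 genes most like each called member. Other pathway genes named in the text were chosen after their values were seen. The members and lists were chosen with earlier results of these data known. Counting error for Dnmt3b and Uhrf1 is large at these depths. Antisense genes overlap exons of Dnmt3a and Tet2, and strand-specific counting separated their reads.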

Additional observations from a re-analysis of the deposited data

Results flagged for a closer look

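The active effect on Tet3 differed between the protocols, with an LP minus SP difference of −0.62 (log2) in a test of the interaction. In 81 groups of 5 libraries (9 genes in 9 conditions), 4 held a library whose gap to the nearest other exceeded the limit of Dixon's test, and chance flags about 1 group in 20. These were Dnmt3b after 1 h Bic in preparation 1 (0.828 CPM, the others between 0.511 and 0.584), Mbd2 with LP TTX in preparation 6 (32.1 CPM, the others between 26.7 and 27.2), Uhrf1 with SP TTX in preparation 6 (1.66 CPM, the others between 0.931 and 1.10) and Uhrf1 with LP TTX in preparation 8 (1.73 CPM, the others between 1.17 and 1.31). The cause was not tested.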

How the results depend on the processing

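Of 34 changes of single genes that were called in at least 1 analysis, each kept its direction in all alternatives. The number of the 9 genes called moved as follows. After 0.5 h Bic it was 1 and became 0 with filterByExpr, with DESeq2 and in the paired fit (replicate block over filterByExpr genes), and ranged from 0 to 1 when a preparation was left out. After 2 h Bic it was 2 and became 3, with Tet1, with the block over all genes and without preparation 3. For the SP passive effect it was 1 and became 0 with filterByExpr, in the paired fit and with all 45 libraries in one fit (0 to 1 without a preparation). For the SP active effect it was 0 and became 1 with the block over all genes and in the paired fit (0 to 1). For the SP total effect it was 0 and became 4 with the block over all genes and 2 in the paired fit (0 to 1). For the LP passive effect it was 1 and became 2 with the block over all genes, 3 in the paired fit and 0 with all libraries (0 to 1). For the LP active effect it was 5 and became 7 with the block over all genes and in the paired fit, where Dnmt3b and Tet1 were added, and 6 with filterByExpr and with all libraries, where Dnmt3b was added. It ranged from 3 to 6 without a preparation, highest without preparation 8, where Dnmt3b and Tet1 were added and Dnmt1 was lost. For the LP total effect it was 6 and ranged from 5 without preparation 3 or 6, where Dnmt3b was lost, to 7 without preparation 8, where Tet1 was added (−0.25, edgeR, adjusted p = 0.013). For spillover it was 0 and became 1 with either block (0 to 1). For the LP minus SP active difference it was 1 and became 2 with the block over all genes and 4 in the paired fit. Over all genes the block had infinite prior degrees of freedom, as had the spillover fit without preparation 8. The unpaired fits over all genes had 20.4 to 44.9, those over filterByExpr genes 5.5 to 7, and the paired fits 6.3 to 14.9. Without preparation 3, the fits of 0.5, 1 and 2 h Bic had 1403.9, 127.6 and 62.1. Small p-values from fits with high values are to be read with care, and their reliability was not tested. After 0.5 h Bic, Tet2 had an adjusted p of 0.025 over all genes and 0.65 over filterByExpr genes (edgeR, unpaired). The paired fit changed no call of the 10 comparisons and 2 differences other than those named here and in the report. The cause of these changes was not tested. Depth limits Dnmt3b and Uhrf1, with as few as 4 reads in a library.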
